A study of Mus musculus with 8 samples.

Results

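CXC chemokine ligands are small secreted proteins that draw leukocytes to inflamed tissue. The 8 genes Cxcl1, Cxcl2, Cxcl3, Cxcl9, Cxcl10, Cxcl11, Cxcl14 and Cxcl16 were chosen by gene symbol from the 55487 genes of the table. All 8 were found, with 1 row each. They were followed in J774A.1 cells, a mouse macrophage line of BALB/c origin, that received lipopolysaccharide (LPS, a bacterial cell wall component, 1 μg/mL) or LPS (1 μg/mL) together with ursodeoxycholic acid (UDCA, a secondary bile acid, 1 mM) for 24 h. The comparison asks how UDCA alters the levels of these transcripts while LPS is present. Each group had 4 RNA-seq libraries. All 8 libraries received LPS and come from a single cell line, so no level without LPS was analysed here. Nothing in the labels says that the 4 libraries of a group came from separate cultures, so a p-value measures the spread between these libraries, which may be technical.

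Cxcl1, Cxcl2 and Cxcl3 act on the receptor Cxcr2 and attract neutrophils. In macrophages they are early targets of NF-κB after Toll-like receptor 4 binds LPS. Cxcl9, Cxcl10 and Cxcl11 act on Cxcr3 and attract activated T cells and natural killer cells. They are induced by interferons through STAT and IRF factors, and Cxcl10 also responds to LPS directly. Cxcl14 is made mainly by epithelia and fibroblasts. Cxcl16 is a transmembrane ligand of Cxcr6 that the protease Adam10 releases from the cell surface.

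Both groups of ligands lie on chromosome 5 of GRCm38, the build that the submitters' processing notes name. The start sites of 4 ligands are shown first because they are the ligands whose promoters hold a κB match. RefSeq promoter sequences (GRCm38.p6) were given for 6 of the 8 ligands, and Cxcl11 and Cxcl16 had no entry. Each sequence reads 5′ to 3′ towards the gene. The capitals mark matches to the κB motif, bound by NF-κB, and in Cxcl10 also the match to the interferon-stimulated response element (ISRE). The stretches of Cxcl1, Cxcl2 and Cxcl3 run from 130 bases before the start site through the first 20 bases of the transcript, and that of Cxcl10 runs from 250 bases before it through the first 50.
Cxcl1 (chr5:90891115-90891264, plus strand): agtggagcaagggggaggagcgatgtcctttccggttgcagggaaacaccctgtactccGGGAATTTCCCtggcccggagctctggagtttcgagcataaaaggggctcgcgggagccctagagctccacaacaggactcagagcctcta
Cxcl2 (chr5:90903769-90903918, plus strand): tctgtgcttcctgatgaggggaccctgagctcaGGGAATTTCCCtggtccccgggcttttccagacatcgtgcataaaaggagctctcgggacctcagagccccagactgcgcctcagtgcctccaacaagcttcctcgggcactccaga
Cxcl3 (chr5:90785971-90786120, plus strand): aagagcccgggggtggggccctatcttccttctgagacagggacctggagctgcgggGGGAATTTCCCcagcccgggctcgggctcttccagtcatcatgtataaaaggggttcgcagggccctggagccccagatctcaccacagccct
Cxcl10 (chr5:92348840-92349139, minus strand): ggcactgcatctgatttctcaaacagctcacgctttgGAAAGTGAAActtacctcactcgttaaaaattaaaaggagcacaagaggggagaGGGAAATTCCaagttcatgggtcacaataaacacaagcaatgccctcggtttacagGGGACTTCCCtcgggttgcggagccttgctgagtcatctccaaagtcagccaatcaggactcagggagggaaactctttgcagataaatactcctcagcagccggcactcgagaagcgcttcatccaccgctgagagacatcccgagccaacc

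The 3 neutrophil attractants shared the same 11-base κB stretch, which starts 71 bases upstream of the start site in Cxcl1, 97 in Cxcl2 and 73 in Cxcl3 and is read as a match on both strands. Cxcl10 held 2 different κB matches, 159 and 103 bases upstream, an ISRE match (GAAA repeated after any 2 bases) 213 bases upstream and an AP-1 match (TGANTCA) 74 bases upstream. Cxcl9 held an AP-1 match 32 bases into the transcript and TATAAA 195 bases upstream, without a κB or ISRE match in its 300 bases, and Cxcl14 held an ISRE match and a match to the STAT motif GAS (TTCNNNGAA). Cxcl3 also held TATAAA, 30 bases upstream. Both strands were searched. Over all 32851 promoters of the same length, 4.51% held the κB motif, 3.44% the ISRE, 8.30% the GAS motif, 7.81% the AP-1 motif and 13.6% the letters TATAAA of the TATA box. These matches describe letters in a window and were not tested for binding.

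**Figure D1:**
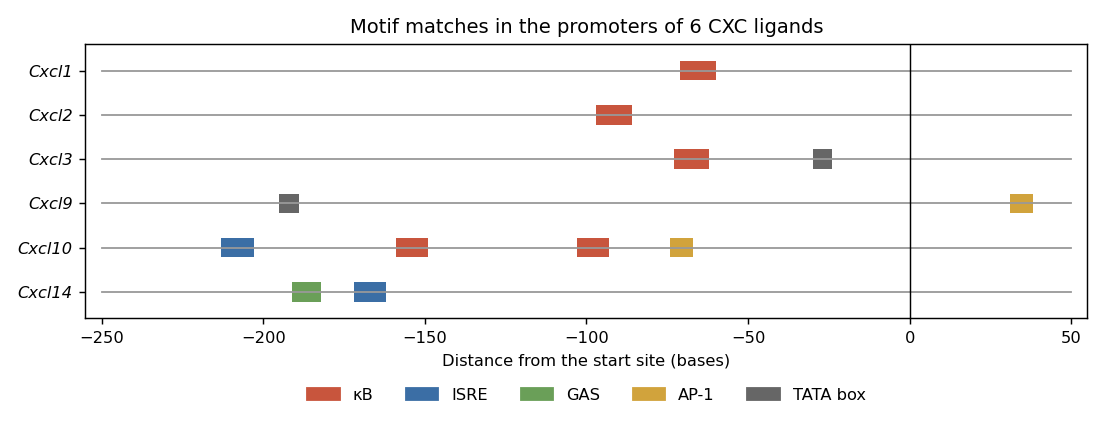
Motif matches in the promoters of 6 CXC ligands, plotted as distance from the start site in bases, from 250 before it to 50 after it. Coloured boxes mark κB, ISRE, GAS, AP-1 and TATA box matches on either strand; the κB box is present in Cxcl1, Cxcl2, Cxcl3 and Cxcl10, and the ISRE box in Cxcl10 and Cxcl14.

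The deposited values are TPM, in which reads are divided by transcript length, so that levels of different genes can be compared. The values of a library did not sum to the same total, and every UDCA library summed to less than every LPS library. TPM keeps no read number, so the depth is unknown and no counting error is given. At 1 TPM or more there were 11412 to 11517 genes in the LPS libraries and 11648 to 11730 with UDCA. The cells carried macrophage transcripts, with 7 of 8 markers measured at 1 TPM or more on average and Mertk listed at 0 in every library. The summed level of these markers was 2799 to 2977 TPM in the LPS libraries and 916 to 999 TPM with UDCA. Of the 7, Cd68, Csf1r, Itgam and Lyz2 were lower and Adgre1 and Fcgr1 higher past the thresholds given next, and their part in the chemokine values was not tested. The markers of neutrophils, fibroblasts, epithelium, lymphocytes and endothelium summed to at most 1.00 TPM per list in any library. In such bulk RNA, fewer cells of a type and less RNA per cell cannot be told apart.

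With UDCA, Cxcl2, by far the most abundant of these ligands, fell to 0.377 of its level, Cxcl10 fell less, to 0.782, and Cxcl16, a transcript of low level, rose 1.61-fold. The other 5 ligands averaged under 1 TPM over the libraries. The 11796 genes that averaged 1 TPM or more were tested with limma on log2(TPM + 1). To be called, a gene needed a fold change of 2 or more and a false discovery rate (FDR, Benjamini-Hochberg adjusted over all of them) under 0.05. Of the 8 ligands, 3 passed the filter. Cxcl2 was called lower, where 8.44% of all genes tested were called lower and 8.71% higher. All 3 had an FDR under 0.05, as did 72.5% of the genes tested, and all 3 had no overlap between the groups, as in 66.8% of the genes tested (29.9% lower and 37.0% higher with UDCA). The median log2 fold change was 0.082 over all genes tested. Fold changes on the log2(TPM + 1) scale understate the change of genes with low TPM.

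Cxcl2 (ENSMUSG00000058427, macrophage inflammatory protein 2) lies on the plus strand of chromosome 5 from 90903871 to 90905938. It was listed at 1842, 1863, 1805 and 1922 TPM in LPS replicates 1 to 4. With UDCA its replicates 1 to 4 stood at 695, 767, 676 and 663 TPM. Every UDCA library was below every LPS library. The mean level fell from 1858 ± 49.2 TPM (SD, n = 4) to 700.3 ± 46.4 TPM, a ratio of 0.377. On the log2 scale it changed by -1.41 with a standard error of 0.046 (limma adjusted p = 1.8e-08). Of all genes tested, 4.31% had a lower log2 fold change. Cxcl2 ranked between 95 and 102 among all genes by TPM in the LPS libraries and between 189 and 215 with UDCA. It thus remained among the more abundant transcripts. Of its 31-base words, 7.59% also occur in Cxcl3, and in no other annotated gene.

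Cxcl1 (KC, another ligand of Cxcr2) was at 0 in every LPS library. With UDCA it was listed at 0.450, 0.650, 0.620 and 0.270 TPM in replicates 1 to 4. The groups did not overlap, and UDCA was the group with signal (exact permutation test on log2(TPM + 1), 2-sided, p = 0.029, the smallest p that 70 arrangements of 8 libraries allow). A value of 0 in this table need not mean a silent gene, so no fold change is given. Even with UDCA, Cxcl1 reached between 0.0407% and 0.0917% of the TPM of Cxcl2, whose gene starts 10.8 kb downstream. Cxcl1 (ENSMUSG00000029380) spans 90891241 to 90893115. No 31-base word of Cxcl1 occurs in another annotated gene.

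Cxcl3 (the remaining ligand of Cxcr2) was listed at 0.360, 0.450, 0.070 and 0.240 TPM with LPS and at 0.070, 0.090, 0 and 0 TPM with UDCA. LPS replicate 3 lay within the range of the UDCA libraries, so the groups overlapped (exact permutation test, 2-sided, p = 0.086). Without that library the same test gave an exact p of 0.029. That is the smallest p possible without 1 library, and the remaining libraries no longer overlapped. With any other library left out, the exact p was between 0.086 and 0.114. With all 23729 genes above 0 in the limma fit the adjusted p was 0.034. Cxcl3 (ENSMUSG00000029379) spans 90786103 to 90789600. Its level was at most 0.0242% of that of Cxcl2 in any library, and 5.46% of its own 31-base words occur in other genes, Cxcl2 among them. Of the neutrophil attractants, the signal in these cells thus came almost wholly from Cxcl2, and their summed level was 1805 to 1923 TPM with LPS and 663 to 768 TPM with UDCA.

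Cxcl10 (interferon-γ-induced protein 10, a ligand of Cxcr3) was listed at 66.6, 72.4, 68.4 and 63.4 TPM with LPS and at 51.4, 47.4, 58.5 and 54.3 TPM with UDCA. Every UDCA library was below every LPS library. The mean level fell from 67.7 ± 3.76 TPM (SD, n = 4) to 52.9 ± 4.68 TPM, a ratio of 0.782. On the log2 scale it changed by -0.35 with a standard error of 0.068 (limma adjusted p = 0.0012), under the fold change minimum. Of all genes tested, 26.5% had a lower log2 fold change. Cxcl10 (ENSMUSG00000034855) lies on the minus strand of chromosome 5 from 92346638 to 92348889. Art3 overlaps Cxcl10 on the opposite strand and shares 5.91% of its exonic bases. Art3 was listed at 0.070 to 0.570 TPM, and whether strand was used in counting is not given in the sources used here.

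Cxcl9 and Cxcl11, the other ligands of Cxcr3, were close to the floor of the table. Cxcl9 (monokine induced by interferon-γ) was listed at 0 in 7 of the 8 libraries and at 0.020 TPM in LPS + UDCA replicate 2 (exact permutation test, 2-sided, p = 1). Cxcl11 (interferon-inducible T-cell α chemoattractant) was listed at 0.200, 0.260, 0.440 and 0.40 TPM with LPS and at 0.320, 0.340, 0.320 and 0.570 TPM with UDCA. These ranges overlapped (exact permutation test, 2-sided, p = 0.46), so no difference was detectable between these libraries. Cxcl9 (ENSMUSG00000029417) spans 92321347 to 92328079 and Cxcl11 (ENSMUSG00000060183) spans 92359544 to 92365485, both on the minus strand. GENCODE annotates Cxcl11 of the reference strain as a polymorphic pseudogene, and the processed pseudogene Gm2673, listed at 0 in every library, covers 41.7% of its exonic bases on the opposite strand.

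Cxcl16 was the only ligand of the 3 tested that rose. It was listed at 2.26, 1.65, 2.17 and 2.12 TPM with LPS and at 3.37, 3.02, 3.50 and 3.33 TPM with UDCA. The groups did not overlap. The mean level rose from 2.05 ± 0.273 TPM (SD, n = 4) to 3.31 ± 0.203 TPM, a ratio of 1.61, and by 0.50 on the log2 scale with a standard error of 0.10 (limma adjusted p = 0.0017), under the fold change minimum. Of all genes tested, 73.3% had a lower log2 fold change. Cxcl16 (ENSMUSG00000018920) lies on the minus strand of chromosome 11 from 70453983 to 70459984. Zmynd15 overlaps it on the opposite strand over 18.3% of the exonic bases of Cxcl16 and was listed at 0.030 to 0.170 TPM.

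Cxcl14 was listed at 1.35, 1.47, 1.11 and 1.32 TPM with LPS and at 0.300, 0.12, 0.500 and 0.360 TPM with UDCA. Every UDCA library was below every LPS library (exact permutation test, 2-sided, p = 0.029, the smallest p the design allows). The mean was 1.31 ± 0.150 TPM (SD, n = 4) under LPS alone and 0.320 ± 0.157 TPM with UDCA, a ratio of 0.244. The gene had a mean under 1 TPM over all libraries and was not in the main fit. With all 23729 genes above 0 in the fit, its adjusted p from limma was 3.4e-04 and that of Cxcl1 was 5.8e-04. Cxcl1 entered that fit through its UDCA libraries alone, since it was at 0 in every LPS library. The shares given above for all genes tested cover only the 11796 genes of the main fit. How common such p-values, or groups without overlap, are among genes of low level was not examined. Cxcl14 (ENSMUSG00000021508) lies on the minus strand of chromosome 13 from 56288643 to 56296551.

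**Figure D2:**
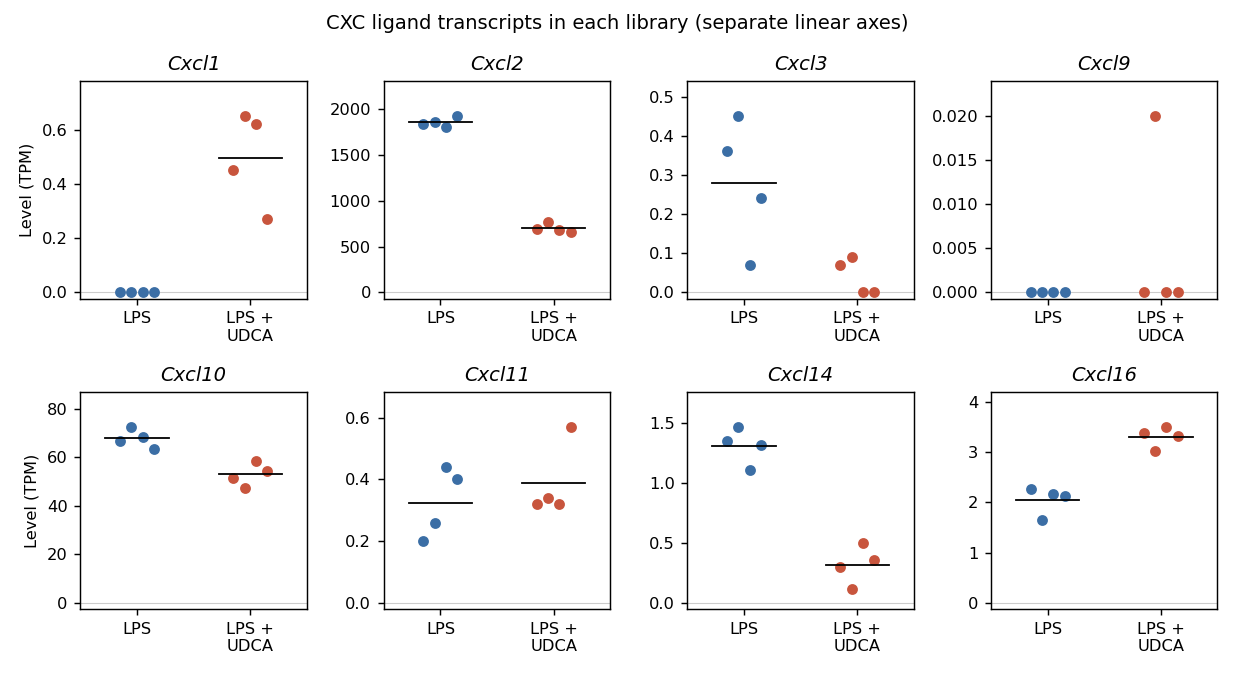
Level of each of the 8 CXC ligands in TPM, with one point per library, 4 LPS libraries (blue) and 4 LPS + UDCA libraries (red), on separate linear axes; black lines are means and are drawn only where no library is listed at 0. Cxcl2, Cxcl10 and Cxcl14 are lower in every UDCA library, Cxcl1 and Cxcl16 are higher, and Cxcl3, Cxcl9 and Cxcl11 overlap.

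The contrast between neutrophil attractants and interferon-driven ligands rested on Cxcl2 and Cxcl10, since these were the only members of their groups above the filter. Of the 9 possible pairs of a Cxcr3 ligand and a Cxcr2 ligand, 1 could therefore be tested. The ratio within a library does not depend on how libraries are scaled to each other. Cxcl2 exceeded Cxcl10 in TPM by 27.7-, 25.7-, 26.4- and 30.3-fold in LPS replicates 1 to 4 and by 13.5-, 16.2-, 11.6- and 12.2-fold in LPS + UDCA replicates 1 to 4. The ratios of the groups did not overlap. The log2 ratio of Cxcl10 over Cxcl2, with 1 TPM added to both, rose from -4.76 ± 0.10 (SD, n = 4) to -3.70 ± 0.21, a difference of 1.06 (standard error 0.12, exact permutation test, 2-sided, p = 0.029, the smallest p the design allows). Cxcl10 thus fell by less than Cxcl2. In the other 8 pairs at least one gene was near 0, and their ratios were not tested.

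The sum of the 8 ligands was 1877 to 1990 TPM in the LPS libraries and 722 to 819 TPM with UDCA. Cxcl2 made up 96.1% to 96.6% of that sum with LPS and 91.4% to 93.7% with UDCA. Cxcl10 made up 3.19% to 3.73% with LPS and 5.79% to 7.91% with UDCA. The share of Cxcl2 was lower and that of Cxcl10 higher in every UDCA library, and the remaining 6 genes together were under 1% of the sum in every library.

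**Figure D3:**
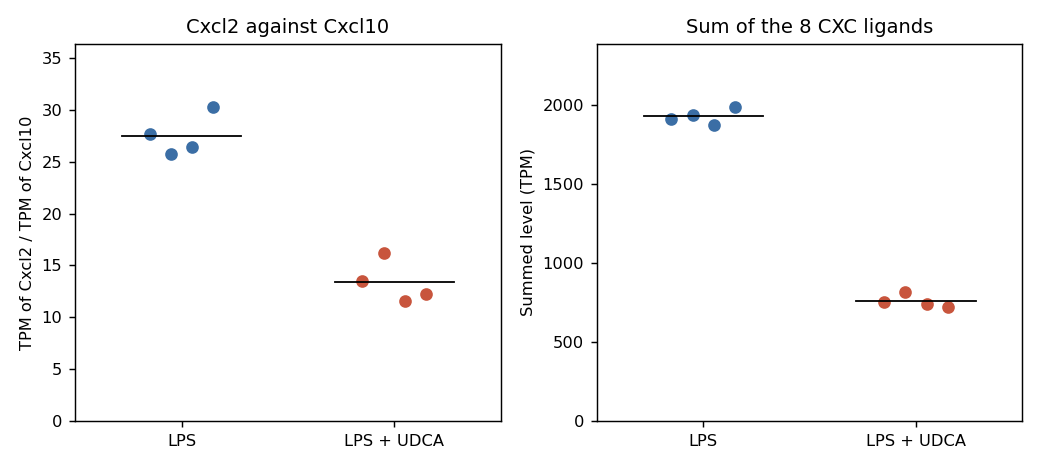
Left, TPM of Cxcl2 divided by TPM of Cxcl10 in each library; right, summed TPM of the 8 ligands, for 4 LPS and 4 LPS + UDCA libraries (points) with group means (lines) on axes from 0. The ratio lies between 25.7 and 30.3 with LPS and between 11.6 and 16.2 with UDCA, and the sums of the groups do not overlap.

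With LPS, the order of levels in TPM was Cxcl2, Cxcl10, Cxcl16, Cxcl14, then Cxcl11 and Cxcl3, and last Cxcl1 and Cxcl9, both listed at 0. Neighbours down to Cxcl14 did not overlap between their libraries, and neither did Cxcl14 and Cxcl11. Cxcl11 and Cxcl3 overlapped. With UDCA, the order was again led by Cxcl2, Cxcl10 and Cxcl16, without overlap. Cxcl1, Cxcl11 and Cxcl14 followed between 0.12 and 0.650 TPM and overlapped each other, so that their order could not be set, and Cxcl3 and Cxcl9, which overlapped at 0, came last.

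Cxcl3, Cxcl1 and Cxcl2 lie within 119.8 kb of chromosome 5, Cxcl9, Cxcl10 and Cxcl11 within 44.1 kb, and 1415 kb separate Cxcl2 from Cxcl9. Within 200 kb of a ligand there were 45 other protein-coding genes in the table, of which 21 were tested, 4 called lower and 1 called higher. The shares over all genes tested were 8.44% called lower and 8.71% higher. Beside Cxcl2, Cxcl1 and Cxcl3, 3 of 9 neighbours were tested. Of these, Pf4 (platelet factor 4, itself a CXC ligand) had a log2 fold change of -1.28 and Rassf6 (a Ras association domain protein) one of -1.31, both having passed the filter through the LPS libraries alone, while Mthfd2l did not pass (log2 fold change 0.27, limma adjusted p = 0.17). Beside Cxcl9, Cxcl10 and Cxcl11, 6 of 9 neighbours were tested, and Uso1 (a vesicle tethering factor) was called higher (log2 fold change 1.13). Near Cxcl16, Arrb2 (β-arrestin 2, log2 fold change -1.12) and Pfn1 (profilin 1, log2 fold change -1.10) were called lower, while Cxcl16 itself was higher.

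The ligands also differed in the pentamer ATTTA of their 3′ untranslated regions, the core of the AU-rich elements that control the decay of many cytokine mRNAs. In the longest coding transcript of each gene, the 3′ untranslated region held 11 copies in Cxcl2 (7.36 per kb), 7 in Cxcl1 (11.8 per kb) and 5 in Cxcl3 (7.75 per kb). It held 3 in Cxcl10 (3.01 per kb), 3 in Cxcl9 (1.22 per kb), 1 in Cxcl11 (0.821 per kb), 2 in Cxcl16 (1.41 per kb) and none in Cxcl14. Among 10342 tested genes with such a region, the median was 1.29 per kb, and 2.36% were at least as dense as Cxcl2 and 19.9% at least as dense as Cxcl10. Of the factors that bind these elements or control cytokine mRNA stability, 8 were tested, with 1 called higher, 1 lower and a median log2 fold change of -0.20. The shares over all genes tested were 8.71% called higher and 8.44% lower. Zfp36 (tristetraprolin, which promotes decay) fell from 444.9 ± 4.08 TPM (SD, n = 4) to 346 ± 27.4 TPM (log2 fold change -0.36, limma adjusted p = 1.9e-04). The lowest was Zfp36l2, a relative of Zfp36 (log2 fold change -1.16), and the highest was Arid5a, which stabilizes some cytokine mRNAs (1.07).

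Of 7 other CXC ligands, 4 (Cxcl5, Cxcl12, Cxcl13 and Cxcl15) were listed at 0 in every library, and Cxcl17 (0.130 TPM in LPS + UDCA replicate 2) and Ppbp (0.060 TPM in LPS + UDCA replicate 1) in all but 1. Of the 7, Pf4 alone passed the filter. It was listed at 2.41, 2.77, 1.30 and 1.46 TPM with LPS, and UDCA replicates 1 to 4 were at 0.450, 0.200, 0.190 and 0 TPM. Every UDCA library was below every LPS library, and Pf4 was called lower (limma adjusted p = 3.5e-04), having passed the filter through the LPS libraries alone.

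Of 8 CXC receptors, 2 were tested. Cxcr3, the receptor of Cxcl9, Cxcl10 and Cxcl11, was called lower, from 4.78 ± 0.0966 TPM (SD, n = 4) with LPS to 0.388 ± 0.0995 TPM with UDCA (log2 fold change -2.06, limma adjusted p = 1.8e-07), and its groups did not overlap. It passed the filter through its level in the LPS libraries alone. Cxcr5, the receptor of Cxcl13, had 5.98 and 7.20 TPM (log2 fold change 0.24, limma adjusted p = 0.044), and its groups overlapped. Cxcr2 ranged over 0.12 to 0.270 TPM with LPS and 0.250 to 0.360 TPM with UDCA. Cxcr4 ranged over 0.070 to 0.150 and 0 to 0.10 TPM, and Cxcr6 over 0 to 0.170 and 0.040 to 0.150 TPM, so that the groups overlapped in all 3. Cxcr1, Ackr1 and Ackr3 were listed at 0 in every library. Thus Cxcr3 was above 1 TPM in the LPS libraries and under 1 TPM in every UDCA library, and Cxcr2 and Cxcr6 were under 1 TPM in all 8.

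Of 6 proteases that cut CXC ligands, 3 were tested. Of the others, Mmp8 was listed at 0 in every library and Dpp4 and Mmp12 averaged under 1 TPM in both groups. Adam10, which sheds Cxcl16, rose from 19.4 ± 2.52 TPM (SD, n = 4) to 35.4 ± 2.79 TPM (log2 fold change 0.84, limma adjusted p = 3.3e-05). Adam17, another sheddase, rose less (log2 fold change 0.20, limma adjusted p = 0.017). Mmp9 (gelatinase B) passed both thresholds, with 0.513 ± 0.156 and 3.57 ± 0.562 TPM (log2 fold change 1.59), and passed the filter through its UDCA level alone. Over all genes tested, 40.2% were higher with UDCA at an FDR under 0.05. Adam10 and Cxcl16 were thus both higher, neither past the fold change minimum.

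The lists upstream of these ligands moved in both directions. In the relay from Toll-like receptor 4, 3 of 16 genes were called higher and 1 lower, and the median log2 fold change was 0.45. Of all genes tested, 8.71% were called higher and 8.44% lower. Ticam2 (TRAM, the adaptor of the arm that leads to interferon) was highest at 1.43, and Ikbke (an IκB kinase relative) was lowest at -1.05. Among NF-κB subunits and inhibitors, 1 of 12 was called lower and none higher (median 0.15). At an FDR under 0.05, 6 of the 12 were higher and 5 lower, against 40.2% and 32.3% of the genes tested. The subunit gene Rela had 43.6 and 52.1 TPM (log2 fold change 0.25, limma adjusted p = 0.028), and Nfkb1 did not pass (0.078, limma adjusted p = 0.20). The feedback inhibitors Nfkbia and Tnfaip3 had log2 fold changes of -0.25 and -0.47, the coactivator Nfkbiz had -0.55, and the lowest was Nfkbid at -1.80.

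In the interferon relay, 2 of 17 tested genes were called higher and 1 lower (median 0.13), against 8.71% and 8.44% of all genes tested. At an FDR under 0.05, 8 of the 17 were higher, 7 were lower and 2 did not pass. Irf1, a factor that induces Cxcl9, Cxcl10 and Cxcl11, rose from 5.81 ± 0.40 TPM (SD, n = 4) to 13.1 ± 0.329 TPM (log2 fold change 1.05, limma adjusted p = 6.7e-07). The kinase Jak2 was highest at 1.09, and Socs3, a feedback inhibitor, was lowest at -2.96, from 306 ± 6.67 TPM to 38.9 ± 7.40 TPM. Irf7 (log2 fold change -0.29) was lower, and Stat2 (0.25) and Irf9 (0.77) were higher, all with an FDR under 0.05 from limma and under the fold change minimum. Ifnb1 (interferon-β) was under the filter, with 0.310 ± 0.136 TPM with LPS and 0.595 ± 0.361 TPM with UDCA, and its groups overlapped. Of 20 interferon-induced genes, 14 were tested, with 1 called higher (Gbp3, a guanylate binding protein, log2 fold change 1.11) and none lower. Their median log2 fold change was 0.23. At an FDR under 0.05, 7 were higher, 2 were lower and 5 did not pass, where 40.2% of all genes tested were higher and 32.3% lower. Cxcl10, counted apart from them, was lower.

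**Figure D4:**
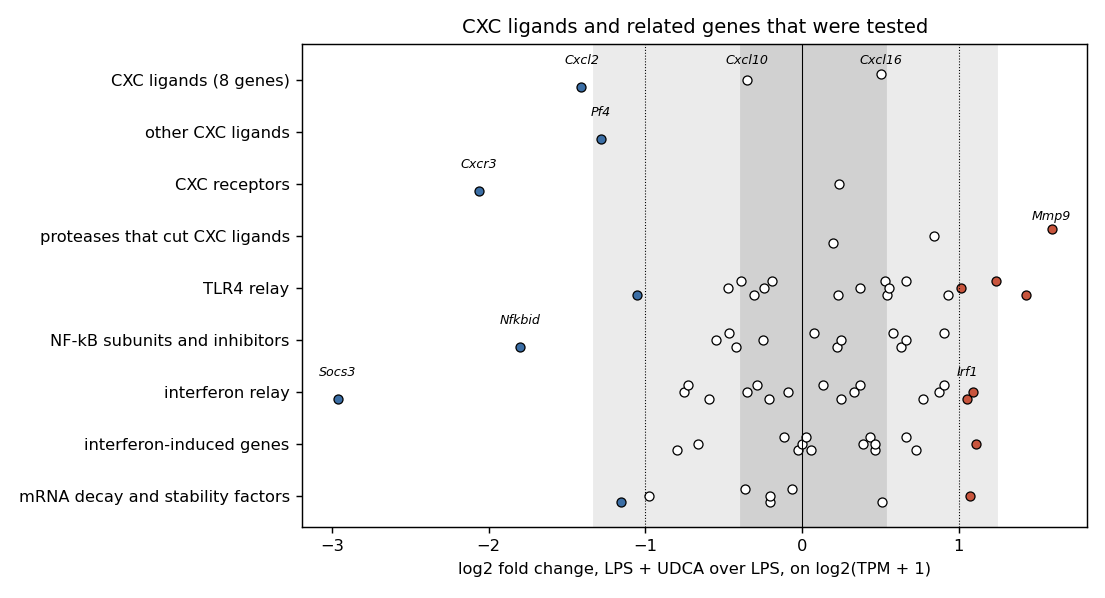
Log2 fold change of each tested gene, LPS + UDCA over LPS on log2(TPM + 1), by list; filled points passed a fold change of 2 (dotted lines) and an FDR of 0.05 (red higher, blue lower), open points did not pass both. The dark band runs from the 25th to the 75th percentile of all 11796 genes tested and the light band from the 5th to the 95th; Cxcl2 and Cxcr3 lie left of the bands, and Cxcl10 and Cxcl16 within the dark band.

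The profile over the 8 libraries, as log2(TPM + 1) after subtracting the LPS mean, was compared with that of every tested gene that averaged 10 TPM or more. This is a description, in which the difference between the groups carries most of the likeness. Closest to Cxcl2 were Tagln2 (transgelin 2, root mean square difference 0.033), Plaur (the urokinase receptor, 0.041) and Ccl4 (a CC chemokine, 0.043). Closest to Cxcl10 were Adamtsl5 (0.050), Supv3l1 (a mitochondrial RNA helicase, 0.059) and Ranbp1 (a nuclear transport factor, 0.060).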

How the data were processed

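J774A.1 cells were sequenced with 4 libraries per group, and groups were taken from the sample labels. The authors deposited TPM per gene, with 2 decimals. The submitters' processing notes name Bowtie 0.12.2, mm10 and GRCm38, and the study's methods name a commercial cloud platform for the reads. The counting program is not given in the sources used here. From the TPM, limma 3.58.1 (R 4.3.3, lmFit and eBayes with a trend) was run on log2(TPM + 1) of the 11796 genes averaging 1 TPM or more. A call needed a 2-fold change and an FDR under 0.05. Ligands under the filter were compared by exact permutation tests over the libraries. Nothing was tested as a set. The procedure was tested on simulated data. Depth is unknown, so precision is the spread between replicates.

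The ligands and lists were chosen with earlier results of these data known. Named genes were the ligands, the highest and lowest called gene of each list, a fixed set of key genes (1 of them is not reported here), called genes within 200 kb and the 3 genes most like Cxcl2 and Cxcl10. Outside that rule, and picked with their values in view, are Ackr1, Cxcr1, Cxcr5, Cxcl12, Cxcl13, Cxcl15, Cxcl17, Ppbp, Mthfd2l, Mmp8, Mmp12, Dpp4, Art3, Zmynd15, Gm2673 and the macrophage markers. Positions and transcripts are from GENCODE M21 (GRCm38), promoters from RefSeq (GRCm38.p6). Tables and plots came from Python 3.11.15 (pandas 2.3.3, matplotlib 3.10.9). Alternatives covered the normalization, filter, pseudocount, replicate block, variance trend, fold change minimum and each library left out.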

Additional observations from a re-analysis of the deposited data

Results flagged for a closer look

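Dixon's test for a library far from the others of its group of 4 was applied to each ligand and group with any spread, at the 95% level. Of 14 groups of values from the 8 ligands, 2 passed, where chance flags about 1 in 20 groups. Cxcl9 was listed at 0.020 TPM in LPS + UDCA replicate 2 and at 0 in the other libraries of its group. Cxcl11 was highest in LPS + UDCA replicate 4, at 0.570 TPM, with the other 3 libraries between 0.320 and 0.340 TPM (gap 0.92 of the range). In Cxcl9, any single value above 0 would have been picked out, and the chance rate does not apply to such a group. Both genes are near the 2-decimal floor of the table.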

How the results depend on the processing

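Cxcl2 was called lower in all 15 alternatives that were run for it (log2 fold change -1.49 to -1.32). Cxcl10 (-0.43 to -0.30) and Cxcl16 (0.40 to 0.67) had an FDR under 0.05 and stayed under the fold change minimum in all 15 and 14 alternatives. Cxcl16 could not be fitted at a mean of at least 5 TPM. For Cxcl3 the difference of the means of log2(TPM + 1) was -0.29, which passed with all genes above 0 TPM in the fit (-0.29, adjusted p = 0.034 from limma). It also passed with quantile normalization (-0.34, exact permutation p = 0.029) and without LPS replicate 3 (-0.37, exact permutation p = 0.029). The last is the smallest p possible without 1 library, and leaving out LPS replicate 3 removed the overlap. Without 1 library the difference of Cxcl3 ranged from -0.37 to -0.23. The cause was not tested. The difference of Cxcl11, which passed no test, was -0.041 with quantile normalization in place of 0.067. With a pseudocount of 0.1 TPM the differences grew, from -0.29 to -1.38 in Cxcl3, from 0.57 to 2.53 in Cxcl1 and from -0.81 to -1.83 in Cxcl14. These ligands were under the filter and could not be called with either pseudocount. In Cxcl1, at 0 in every LPS library, the size of the difference depends on the pseudocount. The counts over the whole table, 1028 higher and 995 lower, became 683 and 742 at a mean of at least 5 TPM, where fewer genes are tested. They became 1444 and 1232 with a pseudocount of 0.1 TPM, and 4741 and 3807 with no fold change minimum. Lower calls also outnumbered higher ones with median-of-ratios scaling (857 higher, 1121 lower) and quantile normalization (874 higher, 1088 lower). Leaving out 1 library moved the log2 ratio of Cxcl10 over Cxcl2 to between 0.99 and 1.15 in its difference. That difference, Cxcl1 and Cxcl14 had an exact permutation p of 0.029 whichever library was left out. This is the smallest p possible with 1 library removed, as it is with all libraries, and groups without overlap stay so when 1 library is removed. It therefore adds nothing to the test with all libraries. The numbers of the replicates were shared by the groups, but same-numbered libraries deviated together by correlations of only -0.035 to 0.15. With the replicate block, 1034 genes were called higher and 1000 lower, and the log2 fold change of Cxcl2 was again -1.41. Depth is unknown, which limits what can be said of the 5 ligands under 1 TPM.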
